A study of Mus musculus with 6 samples.

Results

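The genes described here are 10 of the 32285 genes counted in 6 mouse septal area libraries: Ptprd, Ptprs, Ptprf, Ptprt and Ptprk, which encode receptor-type protein tyrosine phosphatases, Slitrk1, Slitrk3 and Slitrk5, and Il1rapl1 and Il1rapl2. They were chosen by gene symbol, from synaptic adhesion genes, with earlier measured levels and class differences of these data in view. Those results already held the Ptprd level in GABAergic and glutamatergic neurons and the Ptprd and Ptprt differences between lateral and medial septal neurons. The 3 differences drawn from them are given as descriptions without a p-value. Other Ptprd tests that use the GABAergic level keep theirs and are marked as such. All 6 samples were septal area of wild type mice, with no treatment named in the labels and with strain, age, sex and the number of animals per library not given in the sources used here. Libraries were made with droplet 3′ chemistry (10x Chromium v3) from polyA RNA. The series title speaks of nuclei and the protocol of cells. Mitochondrial genes gave 0.047% to 0.0706% of the UMIs of a sample, and the barcodes are called nuclei below.

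The question asked was where in the septal area these genes were expressed, and whether classes of neurons and glia within a sample differed in them. Barcodes with at least 500 genes were kept, 54623 in all, and were assigned to classes by marker genes that include none of the 10. A level is the summed UMI count of a gene per 1000000 UMIs (CPM) of that class in 1 sample, so every class mean below rests on n = 6 samples and its error is the SD over them. No label says that the 6 samples came from separate animals, so each p-value reflects how much these libraries varied, and that variation may be technical. Counts were not corrected for gene length, and levels are compared only between classes for the same gene.

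Receptor-type tyrosine phosphatases are membrane proteins with an adhesive extracellular part and a phosphatase part inside the cell. The LAR family, encoded by Ptprd, Ptprs and Ptprf, sits largely on axons and binds postsynaptic partners across the synaptic cleft, and so takes part in building synapses. Slitrk proteins and the interleukin-1 receptor accessory protein-like proteins IL1RAPL1 and IL1RAPL2 are such partners, with leucine-rich repeats and immunoglobulin-like domains respectively. Ptprt and Ptprk encode members of another family, which binds the same protein on a neighbouring cell.

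The promoters of 3 of the genes are shown because these genes differed in opposite directions between oligodendrocyte precursors and oligodendrocytes in the results below: Ptprt and Il1rapl1 were higher in precursors and Ptprk in oligodendrocytes. Each line gives the 250 bases before the RefSeq start on GRCm38.p6, read 5′ to 3′ on the gene's strand. Capitals mark 3 motifs of 6 bases searched on both strands: CATCTG, an E-box (CAGATG on the other strand), ACAAAG, a Sox-type motif (CTTTGT), and GGGCGG, the GC box (CCGCCC).
Ptprt, chr2:162661148-162661397, minus strand: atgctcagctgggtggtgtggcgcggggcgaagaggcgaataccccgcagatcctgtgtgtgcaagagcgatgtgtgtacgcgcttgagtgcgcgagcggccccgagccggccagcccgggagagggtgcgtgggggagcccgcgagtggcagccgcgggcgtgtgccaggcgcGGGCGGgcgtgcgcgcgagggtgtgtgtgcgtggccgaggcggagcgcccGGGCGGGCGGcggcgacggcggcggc
Il1rapl1, chrX:88115949-88116198, minus strand: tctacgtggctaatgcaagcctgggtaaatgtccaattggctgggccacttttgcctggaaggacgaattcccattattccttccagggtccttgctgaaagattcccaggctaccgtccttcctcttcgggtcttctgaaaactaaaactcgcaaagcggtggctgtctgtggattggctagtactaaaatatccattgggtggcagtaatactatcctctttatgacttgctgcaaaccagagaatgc
Ptprk, chr10:28074570-28074819, plus strand: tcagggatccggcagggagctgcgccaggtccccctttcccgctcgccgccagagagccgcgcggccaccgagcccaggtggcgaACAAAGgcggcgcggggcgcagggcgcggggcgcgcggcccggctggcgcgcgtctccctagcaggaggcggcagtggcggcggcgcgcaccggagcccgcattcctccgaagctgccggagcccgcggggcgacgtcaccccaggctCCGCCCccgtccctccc
The Ptprt window was 76.4% G or C and held 3 GGGCGG matches, which began 76, 26 and 22 bases before the start, the last 2 of them overlapping. The Il1rapl1 window was 47.6% G or C and held none of the 3 motifs. The Ptprk window was 79.2% G or C, with ACAAAG 165 bases and CCGCCC 17 bases before the start. Among all 32817 RefSeq windows of that length, 14.5% held CATCTG, 16.5% held ACAAAG and 32.7% held GGGCGG, and the median content of G and C was 52.4%. Of the 10 genes, 9 had such a window. Ptprd had none and is not shown, although its difference on the oligodendrocyte side (log2 -2.94) was larger than that of Ptprk (-0.61).

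Sample totals ran from 70183544 to 95175260 UMIs, and the median kept nucleus held 5175 to 6863. Of the kept nuclei, 87.8% met the markers of 1 broad class, 6.52% met those of more than 1 and were left out, and 5.65% met none. Of the 22993 nuclei in the broad neuron class, 3862 met no transmitter gate and enter none of the classes below. Shares of the UMIs of all gated nuclei cover only the classes listed next. The classes held 18008 GABAergic, 891 glutamatergic and 232 cholinergic neurons, 10646 astrocytes, 7234 oligodendrocytes, 2105 oligodendrocyte precursors, 995 microglia, 2840 ependymal cells, 783 endothelial cells and 351 pericytes or smooth muscle cells. Within the GABAergic neurons, 8798 nuclei had lateral septum-type, 792 medial septum-type and 1555 striatal-type markers. Another 5902 met none of these types and 961 more than 1, and they count only in the GABAergic class. The classes were cut on these markers, so their levels describe the gates and do not test the names: Slc17a6 at 236 CPM in glutamatergic neurons, Mog at 777 in oligodendrocytes, Pdgfra at 678.7 in precursors, Aqp4 at 151 in astrocytes, Csf1r at 841.6 in microglia, Pdgfrb at 946.6 in pericytes, and Trpc4 at 906 in lateral against 201 in medial septum-type neurons. The cholinergic gate was mixed: Chat stood at 237.8 CPM there, but so did the lateral septal marker Trpc4 at 502.3, and 139 of the 232 nuclei also met the lateral septum-type markers. No 2 libraries shared more than 43 barcodes, and the highest shared part of a library was 0.433%.

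Droplet data hold some UMIs of RNA that was free in the suspension, so neuronal genes give a reference for low glial levels. Syt1, a synaptic vesicle gene of neurons, stood at 8.94% of its GABAergic level in astrocytes, 9.33% in oligodendrocytes, 6.93% in precursors, 13.1% in microglia, 10.1% in ependymal cells, 15.4% in endothelial cells and 15.0% in pericytes. Over 6 neuronal genes (Snap25, Syt1, Rbfox3, Snhg11, Stmn2 and Celf4) the level ran from 5.82% to 14.1% in astrocytes, 5.04% to 14.5% in oligodendrocytes, 3.34% to 33.7% in precursors and 7.37% to 19.3% in microglia, lowest for Rbfox3 in each of these. The highest value in precursors was that of Snap25. These 6 genes also formed the neuron gate, and nuclei that met it beside a glial gate were left out, which lowers their level in the glial classes.

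Ptprd, a LAR-family gene, was highest in glutamatergic neurons and next in oligodendrocytes. In glutamatergic neurons the samples stood at 14117, 13369, 16236, 9364, 14018 and 11158 CPM (replicates 1 to 6), a mean of 13044 ± 2429 (SD, n = 6). In oligodendrocytes they ran from 6657 through a median of 7050 to 7313 CPM. Replicates 4 and 6 were the lowest of the glutamatergic values, but every glutamatergic value lay above every oligodendrocyte value. Medial septum-type neurons followed at 2872 ± 524 CPM and did not overlap with either neighbour in the order, and cholinergic neurons stood at 1926 ± 200. Striatal-type neurons at 1638 ± 79.6 overlapped with the cholinergic samples, GABAergic neurons at 1322 ± 87.3 CPM stood apart on both sides, and oligodendrocyte precursors at 900 ± 35.0 overlapped with lateral septum-type neurons at 799 ± 47.5. Microglia had the lowest mean, 469 ± 40.0 CPM, which is 35.6% of the GABAergic level. That percent takes GABAergic neurons as its base, whereas Ptprd was higher in glutamatergic neurons and oligodendrocytes. No microglial expression is read from it, and the part of free RNA in it was not tested.

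**Figure D1:**
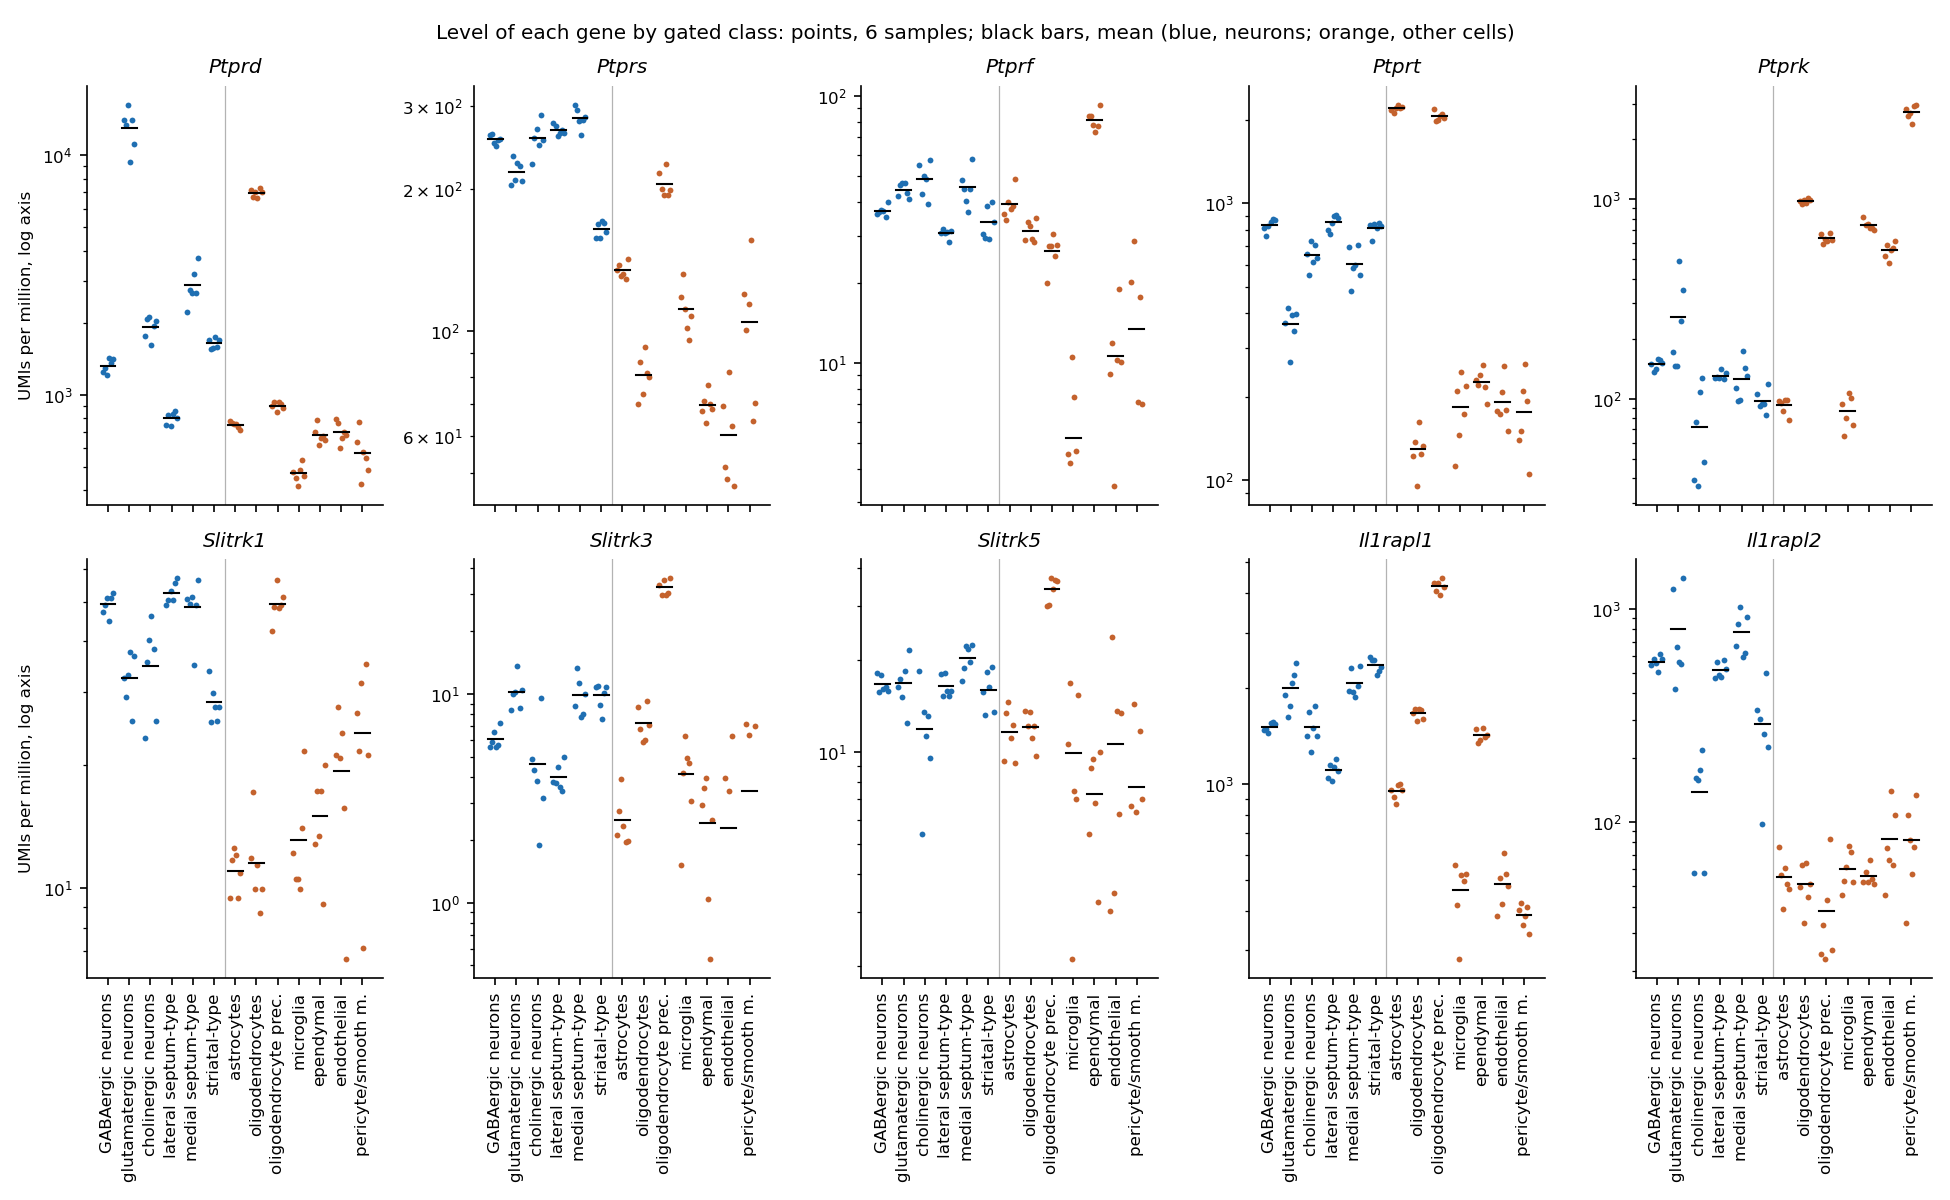
Level of each of the 10 genes (CPM, log axis) in 13 gated classes, 1 point per sample and a black bar for the mean of 6 samples; the lateral, medial and striatal-type classes lie within the GABAergic class, and samples at 0 are not drawn. Ptprd stands highest in glutamatergic neurons (mean 13044), Ptprt in astrocytes (2196) and precursors (2059), Ptprk in pericytes (2741) and Il1rapl1 in precursors (4202).

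Nucleus by nucleus, Ptprd was high in most glutamatergic neurons and oligodendrocytes, rather than in a few. After every nucleus was thinned to 2000 UMIs, the median glutamatergic nucleus held 28, 31, 33.5, 17, 30 and 22 Ptprd UMIs in replicates 1 to 6, the median oligodendrocyte 13 or 14, and the median GABAergic neuron 1. Of the thinned glutamatergic nuclei, 44.2% to 73.9% held 20 or more Ptprd UMIs, against 15.1% to 19.4% of oligodendrocytes and 0.692% to 0.797% of GABAergic neurons. The glutamatergic class, with 2.94% of the UMIs of all gated nuclei, supplied 19.6% of the Ptprd UMIs, and the oligodendrocytes, with 7.45%, supplied 26.1%. At least 1 Ptprd UMI was found in 99.0% of thinned glutamatergic nuclei and 99.1% of thinned oligodendrocytes, and in 56.7% of microglia. Unthinned, these shares were 100% of glutamatergic nuclei, 99.7% of oligodendrocytes and 68.2% of microglia. Thinning left out nuclei with fewer UMIs: 1 glutamatergic and 29 GABAergic neurons, 892 astrocytes, 586 oligodendrocytes, 6 precursors, 274 microglia and 108 pericytes.

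**Figure D2:**
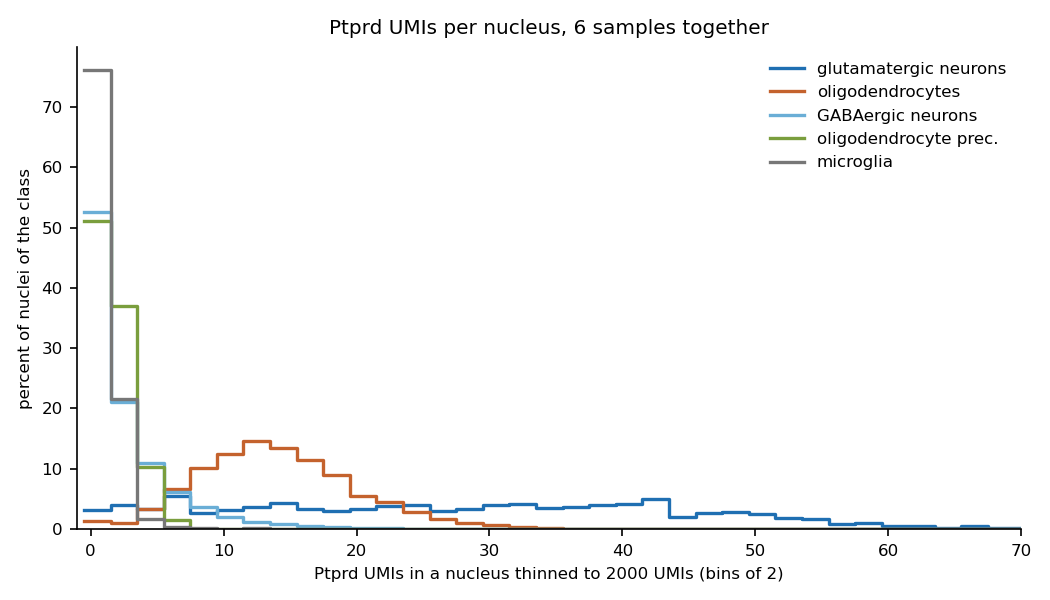
Ptprd UMIs per nucleus after thinning to 2000 UMIs (bins of 2 UMIs, 6 samples together), as the percent of nuclei of 5 classes. Oligodendrocytes form a peak around their medians of 13 to 14, and glutamatergic neurons spread widely, with sample medians from 17 to 33.5.

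Glutamatergic neurons were further divided by the vesicular glutamate transporter gene with the most UMIs in a nucleus, a division chosen after seeing the data and given without a test. Slc17a6 led in 756 nuclei, Slc17a7 in 58 and Slc17a8 in 33, and 44 were tied. Ptprd ran from 10064 through a median of 14032 to 15844 CPM where Slc17a6 led, and from 9325 through 13045 to 27506 where Slc17a7 led. Where Slc17a8 led, Ptprd ran from 402 through 808 to 1765 CPM, resting on 328 UMIs and on 1 to 10 nuclei per sample, with 1 in replicate 5 and 3 in replicate 1. These nuclei also held Gad2, the GABA synthesis gene, at a median of 144 CPM, against 33.9 where Slc17a6 led and a mean of 282 in GABAergic neurons. No sample's Ptprd value in the Slc17a8 group reached the lowest value of the other groups. Among the 3 groups, leaving the tied nuclei aside, the median was lowest in the Slc17a8 group for 5 more of the genes. From the Slc17a6 to the Slc17a8 group Il1rapl1 had medians of 1826, 2921 and 815 CPM, with every Slc17a8 sample below all Slc17a6 and Slc17a7 samples. Ptprk had medians of 197, 441 and 17.0 and Il1rapl2 of 668, 498 and 14.4, where the Slc17a8 samples lay below all Slc17a6 samples but overlapped with the Slc17a7 samples. Ptprs (221, 206 and 184) and Slitrk5 (16.7, 17.9 and 11.0) overlapped in all 3 groups. Ptprt ran from 15.3 through 581 to 878 CPM where Slc17a8 led and from 257 through 375 to 394 where Slc17a6 led, and replicates 3 and 5 of the Slc17a8 group, at 15.3 and 218, lay below every Slc17a6 sample.

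**Figure D3:**
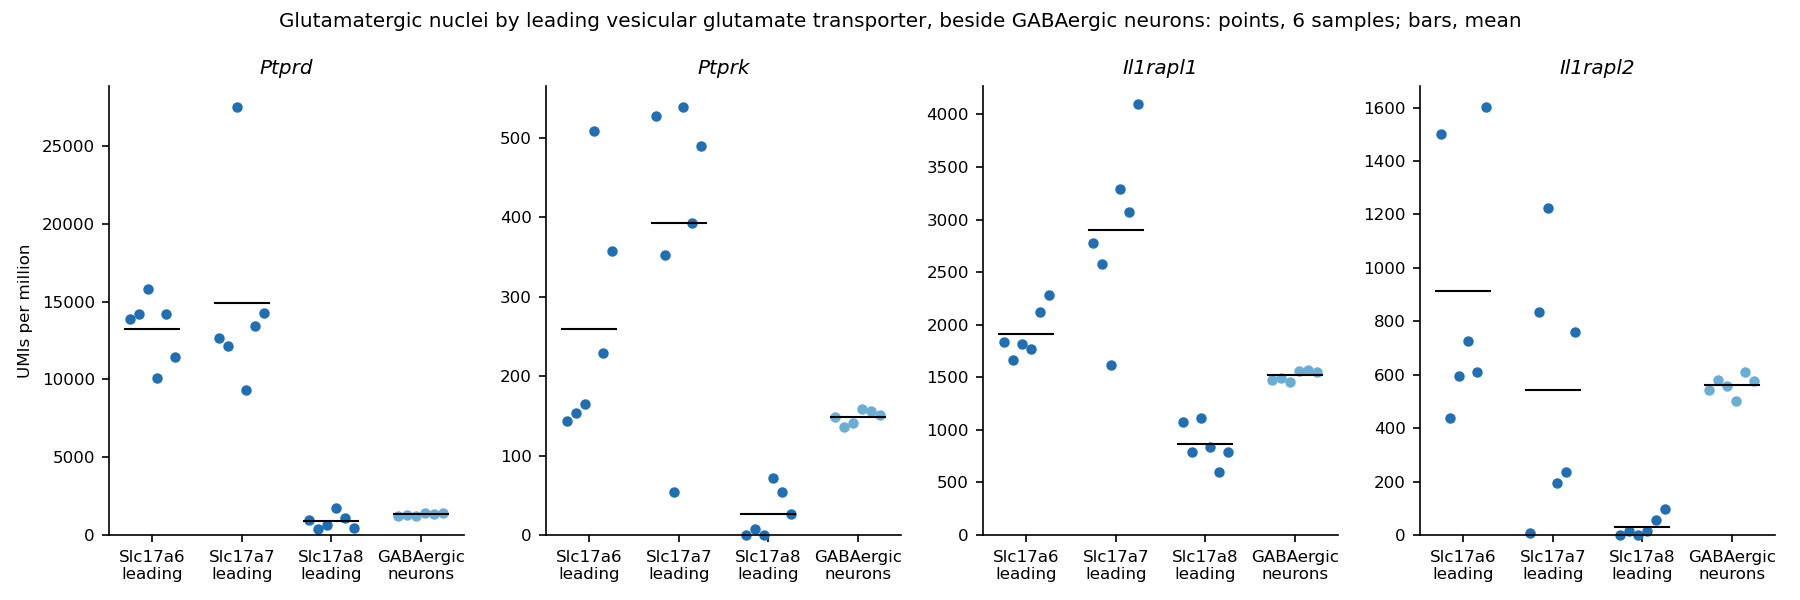
Levels (CPM) of Ptprd, Ptprk, Il1rapl1 and Il1rapl2 in glutamatergic nuclei by leading transporter gene, with GABAergic neurons beside them; points are the 6 samples and bars their mean. Ptprd medians are 14032, 13045 and 808 from the Slc17a6 to the Slc17a8 group.

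Ptprs, the LAR-family gene that also serves as a receptor for proteoglycans, was spread more evenly over neurons. Its mean level was 284 ± 14.2 CPM in medial septum-type, 267 ± 6.40 in lateral septum-type, 257 ± 20.1 in cholinergic and 255 ± 5.53 in GABAergic neurons, and the ranges of neighbouring classes overlapped. The cholinergic value is a blend of nuclei with and without lateral septum-type markers, divided after seeing the data. Those without the markers ran from 282 through 322 to 412 CPM, and those with them from 189 through 196 to 247. Glutamatergic neurons stood at 218 ± 12.5 CPM and oligodendrocyte precursors at 205 ± 13.1, also with overlapping ranges. Striatal-type neurons had 165 ± 6.19, astrocytes 135 ± 4.89 and oligodendrocytes 80.6 ± 8.11 CPM. Ptprf, the gene of LAR itself, was highest in ependymal cells, the ciliated lining of the ventricles. Ependymal samples ran from 73.2 through 81.1 to 92.5 CPM and all lay above the next class, the cholinergic neurons at 49.0 ± 6.86. Cholinergic nuclei without lateral septum-type markers, however, ran from 51.9 through 68.4 to 94.6 CPM and overlapped with the ependymal samples. Cholinergic nuclei with these markers ran from 21.0 through 35.1 to 39.0 CPM. The other neuron classes, astrocytes, oligodendrocytes and precursors lay between 26.3 and 45.6 CPM, and microglia held 15 Ptprf UMIs in all 6 samples together, or 5.23 ± 3.52 CPM.

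Ptprt, a homophilic phosphatase gene, was highest in astrocytes and oligodendrocyte precursors and low in oligodendrocytes. Astrocytes ran from 2114 through 2202 to 2257 CPM and precursors from 1975 through 2050 to 2191. The ranges of these 2 classes overlapped, and both lay above every neuron class, with a ratio of 2.42 between precursors and the next class, lateral septum-type neurons at 851 ± 56.1. GABAergic neurons had 834 ± 42.7, medial septum-type 602 ± 85.0 and glutamatergic neurons 365 ± 54.4 CPM. Oligodendrocytes had the lowest mean, 129 ± 21.9 CPM, which is 15.5% of the GABAergic level (11.5% to 19.0% over samples) and stands beside 5.04% to 14.5% for the 6 neuronal genes. At least 1 Ptprt UMI was found in 94.6% of thinned astrocytes (96.8% unthinned), 97.3% of precursors (99.9%) and 19.5% of oligodendrocytes (31.6%), against 27.9% of microglia (33.0%). The share in oligodendrocytes did not exceed that in microglia, so no expression is read from it, and the part of free RNA in it was not tested.

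Ptprk, the other homophilic phosphatase gene, had a different order. Pericytes and smooth muscle cells ran from 2396 through 2776 to 2966 CPM, and no other class reached this range. Oligodendrocytes followed at 981 ± 26.3 CPM, ependymal cells at 740 ± 39.9, precursors at 636 ± 31.9 and endothelial cells at 555 ± 48.4, and the first 4 of these 5 classes did not overlap with one another. Neurons were lower: GABAergic neurons stood at 149 ± 8.73 CPM and glutamatergic neurons at 171, 145, 146, 488, 246 and 351 CPM in replicates 1 to 6. Replicates 4 and 6 were the highest of these glutamatergic samples, and they were the lowest for Ptprd. After thinning, 98.3% of pericytes (95.1% of all pericytes unthinned), 80.8% of oligodendrocytes (91.0%) and 18.3% of GABAergic neurons (44.2%) held a Ptprk UMI, against 12.9% of microglia (17.2%).

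Slitrk1, which encodes a postsynaptic protein that induces presynaptic differentiation through LAR-family receptors, had its highest means in septal GABAergic neurons and oligodendrocyte precursors. It stood at 52.6 ± 3.15 CPM in lateral septum-type, 49.3 ± 2.85 in GABAergic and 48.6 ± 7.22 in medial septum-type neurons and at 49.3 ± 4.59 in precursors, with overlapping ranges. Astrocytes at 11.0 ± 1.31 and oligodendrocytes at 11.5 ± 2.98 CPM held 22.4% and 23.4% of the GABAergic level, beside 26.4% in microglia. A Slitrk1 UMI was found in 9.08% of thinned GABAergic neurons (45.1% unthinned), 9.38% of precursors (29.5%) and 2.25% of microglia (3.39%). Slitrk3, a partner of Ptprd at inhibitory synapses, was highest in precursors, from 29.9 through 31.9 to 35.9 CPM. Every precursor sample lay above the next class, the glutamatergic neurons at 10.2 ± 1.92 CPM, by a ratio of 3.18 between the means. GABAergic neurons stood at 6.09 ± 0.704 CPM. Precursors, with 3.84% of the UMIs of all gated nuclei, supplied 18.5% of the Slitrk3 UMIs. Slitrk5, another member of this family, was also highest in precursors, from 30.1 through 35.2 to 37.0 CPM. The next class, medial septum-type neurons, stood at 20.3 ± 2.12 CPM and did not overlap, while medial, glutamatergic, GABAergic, lateral and striatal-type neurons formed an overlapping run down to 16.0 CPM.

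Il1rapl1, the X-linked partner of Ptprd whose loss causes intellectual disability in people, was highest in oligodendrocyte precursors. Precursors ran from 3940 through 4237 to 4450 CPM, and all lay above the next class, the striatal-type neurons at 2375 ± 119 CPM. Medial septum-type neurons had 2083 ± 201, glutamatergic neurons 2000 ± 291, oligodendrocytes 1672 ± 66.6 and GABAergic neurons 1518 ± 49.8 CPM. Lateral septum-type neurons stood at 1107 ± 66.0 and astrocytes at 948 ± 52.1, and pericytes had the lowest mean at 386 ± 32.2. At least 1 UMI was found in 99.6% of thinned precursors (99.9% unthinned) and 48.8% of microglia (61.0%). Its relative Il1rapl2 had 90.8% of its UMIs in GABAergic and 5.56% in glutamatergic neurons, classes with 69.4% and 2.94% of the UMIs of all gated nuclei. Medial septum-type neurons stood at 776 ± 175 CPM, GABAergic at 562 ± 37.5, lateral septum-type at 517 ± 44.2, striatal-type at 286 ± 132 and cholinergic at 137 ± 65.4. Glutamatergic samples were 1239, 419, 662, 562, 550 and 1389 CPM, so replicates 1 and 6 stood high and the class could not be separated from its neighbours in the order. The Il1rapl2 level in glia was 9.90% of the GABAergic level in astrocytes, 9.13% in oligodendrocytes, 6.75% in precursors and 10.8% in microglia, each within the range of the 6 neuronal genes in that class.

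Single nuclei held much of some small sums. Of 491 combinations of gene, class and sample with at least 20 UMIs, over 9 classes, 27 had more than 20% of the gene's UMIs in 1 nucleus. In cholinergic neurons, 1 nucleus held 36.2%, 26.2%, 67.1%, 32.3%, 45.3% and 61.1% of the Il1rapl2 UMIs in replicates 1 to 6, and the class mean was 81.6 ± 48.1 CPM without that nucleus in each sample. For Ptprk the nucleus with most UMIs held 21.9% to 65.8%, and the mean was 72.4 ± 37.9 CPM with and 42.9 ± 25.5 without it. In replicate 5 of the precursors, 1 nucleus with 51362 UMIs held 131 of the 204 Il1rapl2 UMIs, where the median precursor of that sample held 6591 UMIs.

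**Figure D4:**
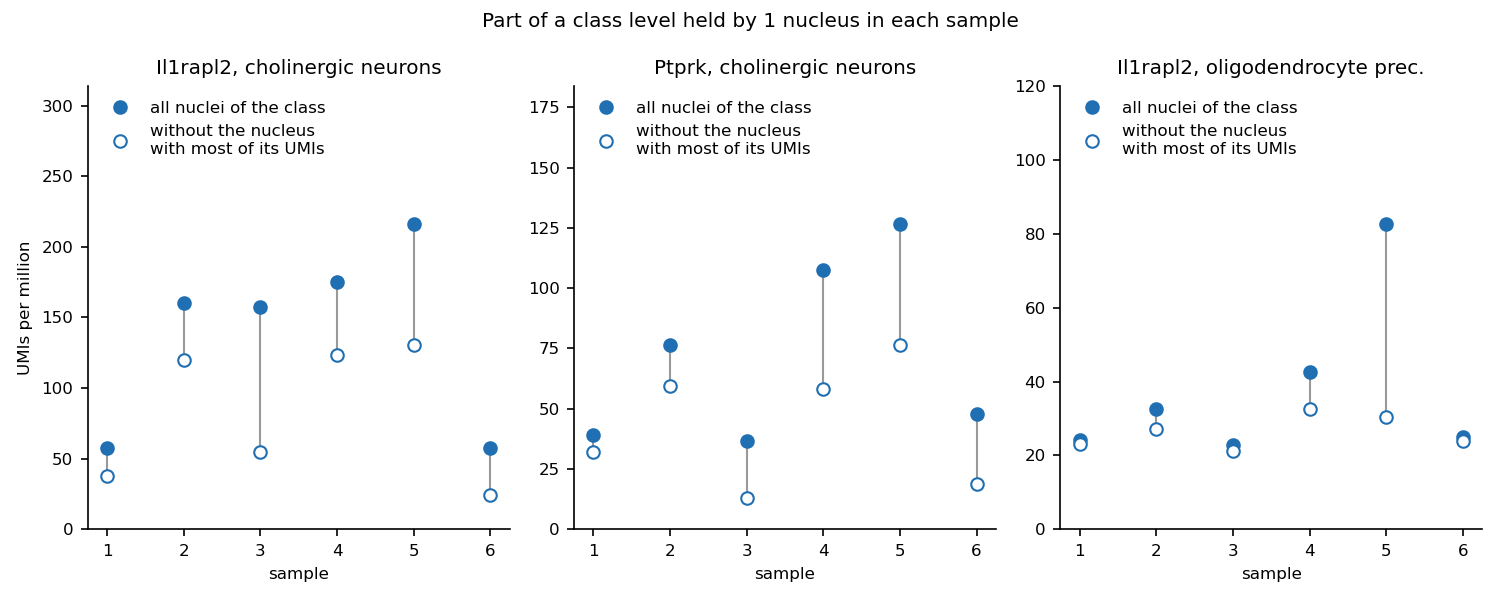
Level (CPM) in each sample with all nuclei of the class (filled) and without the nucleus holding most UMIs of the gene (open), for Il1rapl2 and Ptprk in cholinergic neurons and Il1rapl2 in oligodendrocyte precursors. In precursors of replicate 5 the Il1rapl2 level goes from 82.8 to 30.3.

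Differences between classes were tested on the per-sample sums with edgeR's quasi-likelihood test, with the sample as a block, and p-values were adjusted over all genes tested (Benjamini-Hochberg, threshold 0.05). All 10 genes passed the filter on low counts in all 5 comparisons. Leaving out the 3 differences known beforehand, 37 of 47 tests passed, 16 of them with a difference of at least 1 on the log2 scale. This total pools all 5 comparisons and is not read as a result about the 10 genes. Among all genes tested, 30.1% passed for GABAergic against glutamatergic neurons (10.2% with a difference of at least 1) and 10.5% for cholinergic against GABAergic (3.41%). The shares were 40.0% (10.3%) for lateral against medial septum-type, 81.9% (41.0%) for GABAergic neurons against astrocytes and 68.5% (30.9%) for precursors against oligodendrocytes. The comparisons of GABAergic neurons with glutamatergic neurons, cholinergic neurons and astrocytes share the GABAergic sums, so their values are given side by side and not counted as separate evidence. Ptprd in the cholinergic and astrocyte comparisons remains among the 47 tests, although its GABAergic level was known beforehand.

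In the comparison of oligodendrocyte precursors with the mature oligodendrocytes they give rise to, 6 of the genes were higher in precursors and 4 in oligodendrocytes. Over all 12705 genes tested 68.5% passed, 34.6% higher in precursors and 33.8% higher in oligodendrocytes, and the median log2 difference was 1.36 for the 10 genes and -0.02 for all genes. Among the phosphatases, Ptprt was higher in precursors by 4.02 ± 0.07 (log2, SE, edgeR adjusted p = 9.5e-25) and Ptprs by 1.37 ± 0.06 (edgeR adjusted p = 5.5e-17), while Ptprd was lower by 7.70-fold, at -2.94 ± 0.05 (edgeR adjusted p = 2.3e-25). The precursor and oligodendrocyte samples did not overlap for any of these 3 genes, with Ptprs at 195 to 226 CPM in precursors and 70.1 to 92.4 in oligodendrocytes. Ptprd and Ptprt, whose products belong to different families of receptor phosphatases, thus differed in opposite directions, but so did genes within each family. In the LAR family Ptprs was higher in precursors and Ptprd lower. Of the homophilic phosphatase genes Ptprt was higher and Ptprk lower, at -0.61. Ptprd stood at 900 ± 35.0 CPM in precursors and 6986 ± 262 in oligodendrocytes, and Ptprt at 2059 ± 76.9 and 129 ± 21.9. The 3 Slitrk genes were all higher in precursors, Slitrk3 by 2.15 ± 0.12, Slitrk1 by 2.10 ± 0.11 and Slitrk5 by 1.49 ± 0.11 (edgeR adjusted p = 4.7e-14, 1.9e-14 and 5.6e-12), in 6 of 6 samples. Il1rapl1 was higher by 1.34 ± 0.04 (edgeR adjusted p = 3.0e-19). The differences that passed but were smaller lay between -0.61 and -0.25 and were those of Ptprk, Ptprf and Il1rapl2. The calls for Ptprf and Il1rapl2 depended on single libraries: Ptprf did not pass without replicate 1 or 6 (edgeR adjusted p = 0.093 and 0.061), by DESeq2 (0.097) or in thinned nuclei (0.29). Il1rapl2 did not pass without replicate 1, 2 or 6 (edgeR adjusted p = 0.12, 0.12 and 0.10) or without the replicate block (0.078). Its difference ran from -0.83 to -0.33 over samples left out, and replicate 5 of the precursors, at 82.8 CPM, had most of its Il1rapl2 UMIs in a single nucleus. The level was 6.75% of the GABAergic level in precursors and 9.13% in oligodendrocytes, each within the range of the 6 neuronal genes. The part of free RNA in this difference was not tested.

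**Figure D5:**
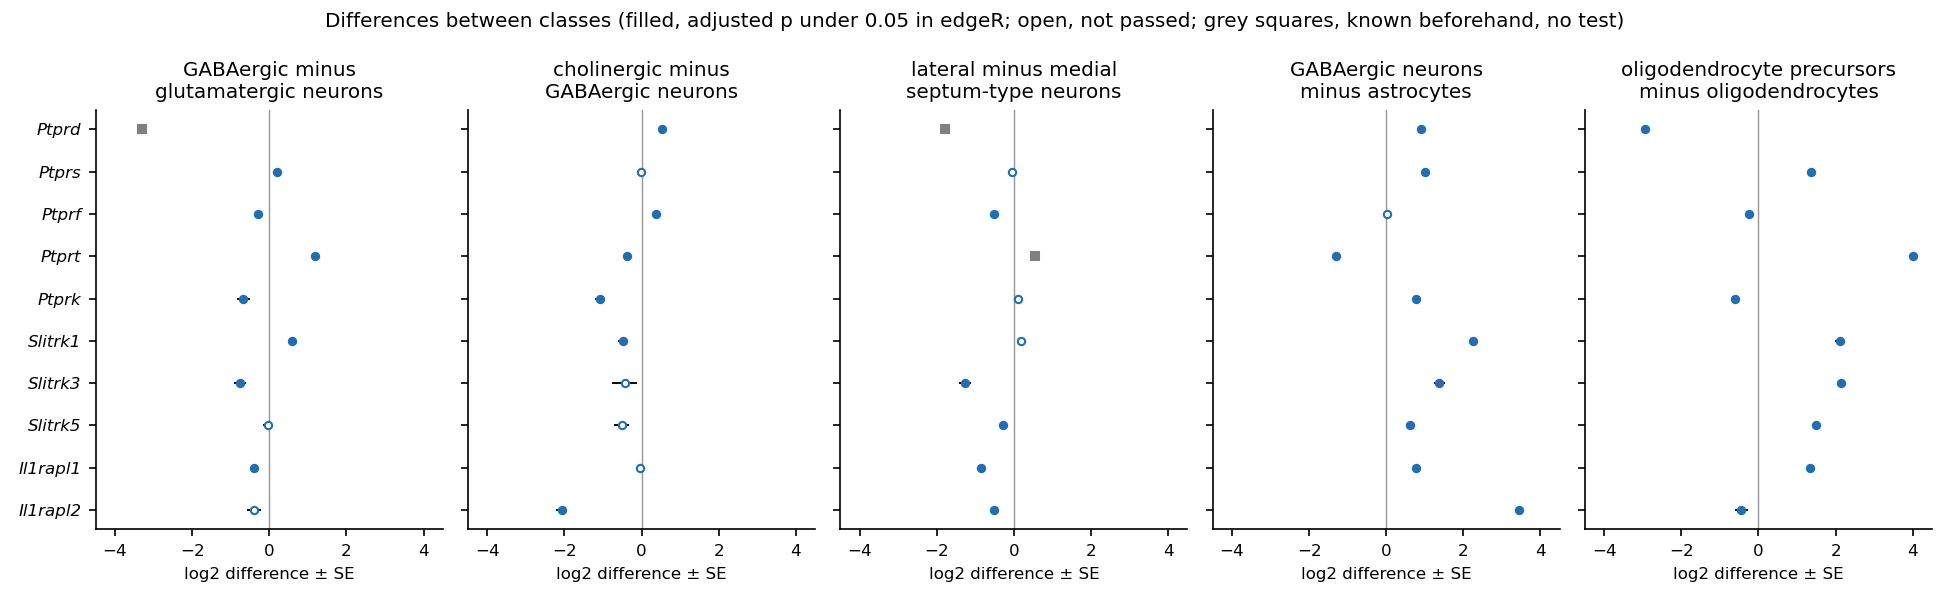
Log2 difference ± SE of the 10 genes in 5 comparisons of classes (first minus second class, 6 samples, sample as block); filled points passed at an adjusted p under 0.05 in edgeR, open points did not, and grey squares are the 3 differences known beforehand. The widest spread is between oligodendrocyte precursors and oligodendrocytes, from Ptprd at -2.94 to Ptprt at 4.02.

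Genes that work with or beside the phosphatases were read from lists drawn up with earlier results known. The list called extracellular partners also holds Mdga1 and Mdga2, of a family that binds neuroligins, so not every gene in it is a direct partner. Of 12 extracellular partners, 10 were higher in precursors and 2 in oligodendrocytes, with a median log2 difference of 1.67. Lrrtm4, a postsynaptic heparan sulfate-binding protein, stood at 5050 CPM in precursors and 467 in oligodendrocytes, a difference of 3.47 ± 0.07. Ntrk3, the neurotrophin receptor TrkC and a partner of Ptprs, stood at 806 and 77.8 (3.40 ± 0.06), Slitrk2 at 35.0 and 4.60 (2.91 ± 0.14) and the glypican gene Gpc4 at 11.6 and 2.06 (2.50 ± 0.23). Il1rap, the interleukin-1 receptor accessory protein and a partner of Ptprd, was higher in oligodendrocytes, at 243 CPM in precursors and 578 in oligodendrocytes (-1.24 ± 0.05). Of 9 intracellular partners, 8 were higher in precursors and 1, the liprin-beta gene Ppfibp2, in oligodendrocytes, at 25.0 and 339 CPM (-3.75 ± 0.08), while its relative Ppfibp1 was higher in precursors by 3.05 ± 0.12. Of 12 other receptor-type phosphatases, 11 were higher in precursors. Among them Ptprz1, a gene of the glial lineage, stood at 2872 and 153 CPM (4.25 ± 0.06), Ptprg at 1189 and 98.7 (3.61 ± 0.05) and Ptpru at 28.4 and 2.55 (3.46 ± 0.14). All of these passed with an edgeR adjusted p of 4.5e-10 or lower.

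Nuclei with Gpr17, a receptor gene of committed precursors, were described without a test. Gpr17 was used after seeing the data to pick 73 nuclei with at least 3 Gpr17 UMIs from the precursor, oligodendrocyte and unassigned nuclei, 8 to 15 per sample. In these nuclei Ptprt ran from 1362 through 1917 to 3133 CPM and Ptprd from 295 through 517 to 770. Every Ptprd sample in the Gpr17 group lay below every precursor sample (lowest 844) and far below every oligodendrocyte sample, while the Ptprt samples spread around the precursor values. Il1rapl1 ran from 3334 through 3921 to 4320 CPM and Ptprk from 526 through 704 to 803, and Slitrk1, on 18 UMIs, from 8.20 through 21.2 to 70.8.

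GABAergic and glutamatergic neurons were compared next. Of 17285 genes tested 30.1% passed, 16.4% higher in GABAergic and 13.8% in glutamatergic neurons, and of the 9 genes other than Ptprd 3 were higher in GABAergic neurons, 4 in glutamatergic neurons and 2 did not pass, with a median log2 difference of -0.29 against 0.01 for all genes. Ptprd, as known beforehand, stood at 1211 to 1423 CPM in GABAergic neurons, a difference of -3.31 ± 0.11 (SE) from glutamatergic neurons. Ptprt was higher in GABAergic neurons, at 760 through 843 to 873 CPM against 268 through 382 to 420, with no overlap and by 1.18 ± 0.08 (log2, edgeR adjusted p = 2.5e-08). The other differences that passed ran from -0.75 for Slitrk3 to 0.58 for Slitrk1. Slitrk5 (-0.03 ± 0.12) and Il1rapl2 (-0.40 ± 0.18) did not pass (edgeR adjusted p = 0.87 and 0.12), and Il1rapl2 did pass without replicate 2, at -0.57 (edgeR adjusted p = 0.026), with Slc17a6-led nuclei only, at -0.54 (0.030), and in thinned nuclei, at -0.59 (1.9e-04). In nuclei thinned to 2000 UMIs the calls of Ptprs, Ptprf, Slitrk1 and Slitrk3 were lost (edgeR adjusted p = 0.22, 0.74, 0.16 and 0.84), and the Ptprf call also under 2 times the marker UMIs (0.44).

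Of the extracellular partners, 3 were higher in GABAergic and 4 in glutamatergic neurons, and 5 did not pass. Mdga1, whose product binds neuroligins and blocks their contact with neurexins, stood at 15.6 CPM in GABAergic and 78.7 in glutamatergic neurons (-2.37 ± 0.09, edgeR adjusted p = 1.4e-10), and Il1rap at 37.3 and 90.9 (-1.26 ± 0.11, edgeR adjusted p = 7.1e-07). Of the intracellular partners 2 of 9 passed, both higher in GABAergic neurons: Trio, a guanine nucleotide exchange factor bound by LAR-type phosphatases, by 0.74 ± 0.06 and the liprin gene Ppfia2 by 0.20 ± 0.05. Of the other receptor phosphatases 6 were higher in GABAergic and 2 in glutamatergic neurons, the latter being Ptpru (-1.90 ± 0.12) and Ptprg (-0.85 ± 0.06).

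Lateral and medial septum-type GABAergic neurons differed in 5 of the 8 genes other than Ptprd and Ptprt, each higher in medial neurons, where 40.0% of the 15752 genes tested passed, 19.0% higher in lateral and 21.0% in medial neurons. The median log2 difference was -0.40 for the 8 genes and -0.01 for all genes. Ptprd stood at 742 through 808 to 859 CPM in lateral and 2224 through 2705 to 3734 in medial neurons, a difference of -1.78 ± 0.06 known beforehand, and Ptprt at 0.56 ± 0.06 on the lateral side. Slitrk3, the inhibitory synapse partner of Ptprd, was lower in lateral neurons as well, at 3.43 through 3.76 to 4.99 CPM against 7.76 through 9.43 to 13.3. No lateral sample reached the medial range, and the difference was -1.26 ± 0.16 (log2, edgeR adjusted p = 4.0e-06). In thinned nuclei Slitrk3 fell below the filter on low counts and was not tested. Il1rapl1 was lower in lateral neurons by 0.86 ± 0.05 on the log2 scale, and Ptprf, Il1rapl2 and Slitrk5 had smaller differences, between -0.52 and -0.28. The Slitrk5 call was lost without replicate 2, 4, 5 or 6 (edgeR adjusted p = 0.052 to 0.076), by DESeq2 (0.071), without the filter (0.13) and in thinned nuclei (0.75), the Ptprf call was lost in thinned nuclei (edgeR adjusted p = 0.14), and the Il1rapl2 call was lost when a class needed 2 times the marker UMIs (-0.19, edgeR adjusted p = 0.36). Under that stricter gate Ptprk, which had not passed at 0.11 ± 0.07, turned to -0.23 (edgeR adjusted p = 0.025), while it passed on the lateral side without the filter, without predicted doublets and without replicate 4 (0.17, 0.19 and 0.18, edgeR adjusted p = 0.012, 0.040 and 0.036). Slitrk1, at 0.18 ± 0.07, passed without the filter (0.25, edgeR adjusted p = 0.0029) and without replicate 1 (0.22, 0.045).

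In the list of extracellular partners, 4 genes were higher in lateral neurons, 4 in medial neurons and 4 did not pass. Mdga1 stood at 9.88 against 36.2 CPM (-1.82 ± 0.13) and Gpc4 at 15.3 against 8.84 (0.83 ± 0.12). Of the intracellular partners 3 were higher on each side, led by Ppfibp2 at -1.65 ± 0.15. Of the other receptor phosphatases 3 were higher in lateral and 7 in medial neurons, with Ptpru at 3.72 against 24.0 CPM (-2.63 ± 0.15) and Ptprm at 174 against 456 (-1.34 ± 0.07). These 5 genes passed with an edgeR adjusted p of 2.0e-05 or lower.

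GABAergic neurons and astrocytes differed in 9 of the 10 genes, where 81.9% of the 18119 genes tested passed, 41.5% higher in neurons and 40.4% in astrocytes. Of the 10 genes 8 were higher in neurons and 1 in astrocytes, with a median log2 difference of 0.83 against 0.02 for all genes. The gene higher in astrocytes was Ptprt, by -1.31 ± 0.03 (GABAergic minus astrocyte, edgeR adjusted p = 3.3e-15). Il1rapl2 was higher in neurons by 3.44 ± 0.10 (log2, edgeR adjusted p = 3.0e-14), with neurons at 501 to 611 and astrocytes at 38.9 to 75.8 CPM. Slitrk1 was higher by 2.25 ± 0.07, Slitrk3 by 1.38 ± 0.14 and Ptprs by 1.01 ± 0.04 (edgeR adjusted p = 3.5e-14, 1.7e-07 and 3.2e-13), each without overlap between the samples. The smaller differences that passed, of Ptprd, Ptprk, Il1rapl1 and Slitrk5, lay between 0.61 and 0.90, and Ptprf did not pass (0.01 ± 0.05). The 6 neuronal genes stood in astrocytes at 5.82% to 14.1% of their GABAergic level, and the part of free RNA in these differences was not tested.

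The partner lists divided 8 to 3 in favour of neurons among extracellular partners, with 1 not passing, 6 to 3 among intracellular partners and 9 to 3 among the other phosphatases. Slitrk2, unlike the 3 Slitrk genes above, was higher in astrocytes, at 33.4 against 4.95 CPM (-2.66 ± 0.06). Ptprz1 was also higher in astrocytes, at 2422 against 213 CPM (-3.43 ± 0.05), as were Ppfibp2 (-3.23 ± 0.07) and Caskin2, a scaffold gene (-3.72 ± 0.11). Lrfn5, an adhesion partner of LAR-type phosphatases, stood at 1641 CPM in neurons and 168 in astrocytes (3.39 ± 0.09), and Lrrtm4 at 4478 and 469 (3.36 ± 0.08).

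Cholinergic and GABAergic neurons were compared on the smallest class, where 10.5% of 17043 genes tested passed, 4.66% higher in the cholinergic class and 5.83% in GABAergic neurons. Of the 10 genes 2 were higher in the cholinergic class, 4 in GABAergic neurons and 4 did not pass, with a median log2 difference of -0.41 against -0.04 for all genes. Il1rapl2 stood at 57.6, 160, 158, 175, 216 and 57.4 CPM in cholinergic samples, each below every GABAergic sample, a difference of -2.07 ± 0.14 (log2, edgeR adjusted p = 4.8e-13). Ptprk was lower in the cholinergic class too, at 39.2, 76.4, 36.5, 107, 127 and 47.8 CPM against 136 to 158, by 1.08 ± 0.14 on the log2 scale (edgeR adjusted p = 5.0e-07). Ptprd was higher by 0.52 ± 0.07 (edgeR adjusted p = 2.7e-07), where its GABAergic level was known beforehand. Ptprf was higher by 0.38 ± 0.11, a call lost without replicate 1, 3 or 4 (edgeR adjusted p = 0.052 to 0.089). The Ptprf call held when cholinergic nuclei with lateral septum-type markers were left out. In thinned nuclei the calls of Ptprd, Ptprf and Slitrk1 were lost (edgeR adjusted p = 0.14, 0.92 and 0.94), and Il1rapl1 passed there at -0.28 (0.026). Slitrk5 passed without predicted doublets, at -0.67 (edgeR adjusted p = 0.039). Of the partners 3 of 12 extracellular, 2 of 9 intracellular and 4 of 12 other phosphatase genes passed, led by Gpc4 at 29.8 against 14.7 CPM (0.93 ± 0.18), Ptpru (-1.67 ± 0.34) and Ptpre (-0.92 ± 0.13).

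The Ptprd difference depended on which nuclei were called cholinergic. The class was divided, after seeing the data, into 139 nuclei that met the lateral septum-type markers and 93 that did not. The first held Chat at a median of 158 CPM, Lhx8, a transcription factor gene of septal cholinergic neurons, at 6.80 and the corticotropin-releasing hormone receptor gene Crhr2 at 129; the second held 362, 152 and 15.7. Ptprd ran from 1896 through 2354 to 2721 CPM in the first and from 605 through 1004 to 1969 in the second. In the second group replicates 2 and 3 were highest, and its range included the GABAergic values. Without the lateral-type nuclei the Ptprd difference from GABAergic neurons turned to -0.35 ± 0.15 and did not pass (edgeR adjusted p = 0.14). Under the same setting Ptprt (-1.13 ± 0.13), Ptprk (-1.44 ± 0.16) and Il1rapl2 (-1.98 ± 0.21) were lower, and Il1rapl1 was lower by 0.68 ± 0.15 on the log2 scale (edgeR adjusted p = 9.9e-09, 1.2e-08, 1.5e-09 and 9.3e-04). Ptprf was the 1 gene that passed as higher in the cholinergic class under it. In the second group Ptprf ran from 51.9 through 68.4 to 94.6 CPM, against 35.1 to 40.0 in GABAergic neurons. Ptprs, at 0.23 ± 0.12, did not pass (edgeR adjusted p = 0.21).

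The genes whose class pattern was most like that of each member were ranked by Pearson's r of log2(CPM + 1) over the 13 class means among 10935 genes, of which 3 classes are nested in the GABAergic one. The r values are descriptions, since the classes share libraries. Il1rapl2 was most like Epha7, an Eph receptor gene (0.983), and Nell1 (0.975), Ptprt was most like Shc3 (0.976) and Bmper (0.973), and Ptprs most like Lrfn1, a synaptic adhesion gene (0.961). Il1rapl1 was most like the kainate receptor gene Grik4 (0.936) and Ptprk most like Cald1 (0.883), a gene of contractile cells. Ptprd was most like 4930511M06Rik (0.931) and Onecut2 (0.921), Ptprf C130060C02Rik, Slitrk1 Tmem255a (0.954), Slitrk3 Gm20754 (0.951) and Slitrk5 4933407I08Rik (0.945). Among the 10 genes themselves, Slitrk3 and Slitrk5 had the highest r, 0.872, followed by Ptprs with Slitrk1 at 0.814 and Slitrk3 with Il1rapl1 at 0.792. The lowest were Ptprk with Ptprs at -0.580 and with Ptprt at -0.504.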

How the data were processed

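RNA of 6 septal area samples was measured with 10x Chromium 3′ v3 libraries. The deposited values were raw UMI counts per gene and barcode; per the submitters' processing notes the authors used Cell Ranger 3.1.0 with STAR, while per the file headers the version was 5.0.0. The sources used here do not give the genome build or say whether introns were counted, which would raise long genes. Barcodes with at least 500 genes were kept. Classes were gated on UMIs of 87 marker genes per 10000 UMIs and on the number of distinct markers, with thresholds set after seeing the marker distributions. Neurons needed 2 UMIs of a transmitter's genes, and nuclei in 2 gates were left out. The 10 genes, the markers and the lists of partners were chosen with earlier results of these data known.

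Counts were summed per sample and class, for classes with at least 10 nuclei in every sample (fibroblasts, 30 nuclei, were not used), and tested in R 4.3.3 with edgeR 4.0.16 (quasi-likelihood, TMM, filterByExpr), both classes of a sample coming from the same library and the sample entering as a block. SE was the absolute log2 difference divided by the square root of F. Fits were tested on simulated data. Alternatives were RLE size factors, DESeq2 1.42.0, no filter, no block, doubled marker thresholds, predicted doublets left out (4186, from simulated pairs and 50 neighbours), thinning to 2000 UMIs, at least 1000 genes and each sample left out; 3 were added after seeing the data. In a comparison, those of the 10 genes that passed with a log2 difference of at least 1 were named with values, and up to 4 genes per partner list, those with the largest differences that passed and reached 10 CPM in a class. Further genes are named where a call depended on a setting, which was decided after their values were seen. UMI totals limit precision by counting error. Promoters were read from RefSeq (GRCm38.p6).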

Additional observations from a re-analysis of the deposited data

Results flagged for a closer look

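In 5 of 130 combinations of gene and class, 1 of the 6 samples stood apart from the others by more than Dixon's 95% limit for 6 values, and chance gives about 1 in 20. Il1rapl2 in oligodendrocyte precursors stood at 82.8 CPM in replicate 5 against 42.7 in the next sample, and 131 of its 204 UMIs there came from 1 nucleus. Slitrk1 in medial septum-type neurons stood at 34.9 CPM in replicate 4 on 135 UMIs, where the next lowest sample had 49.0. Slitrk1 in microglia stood at 21.6 CPM in replicate 6 on 7 UMIs, above 14.0 in the next sample. Ptprt in striatal-type neurons stood at 732 CPM in replicate 2, below 813 in the next sample, and Ptprf in lateral septum-type neurons at 28.3 in replicate 5, below 30.6.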

How the results depend on the processing

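Leaving out the 3 differences known beforehand, the 16 differences of at least 1 on the log2 scale that passed kept their direction and passed under all of their 210 alternatives, which for Slitrk3 in lateral minus medial neurons do not include thinned nuclei. Of 629 alternatives for the 47 tests, 571 kept the call and the direction, 28 lost the call, 11 gained one and 19 changed sign. Sign changes in GABAergic minus glutamatergic neurons were Slitrk5 at 0.017 without the filter, 0.022 with Slc17a6-led nuclei and -0.093 to 0.055 over single samples left out, and Il1rapl2 at 0.15 with doubled markers. In cholinergic minus GABAergic neurons Ptprs turned to 0.030 with RLE factors, 0.030 with DESeq2, 0.11 with doubled markers, 0.029 without predicted doublets and 0.23 without lateral-type nuclei, and ran from -0.045 to 0.025 over samples left out. Il1rapl1 turned to 0.0047 with RLE factors and 0.0050 with DESeq2 and ran from -0.074 to 0.0022 over samples left out, and Ptprd was at -0.35 without lateral-type nuclei. In lateral minus medial neurons Ptprs was at 0.026 without the filter and Ptprk at -0.23 with doubled markers. In GABAergic neurons minus astrocytes Ptprf was at -0.022 when thinned and from -0.025 to 0.053 over samples left out.

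Counts of all genes that passed were 3433 with doubled markers and 2466 when thinned in GABAergic minus glutamatergic neurons (5207 otherwise), 689 when thinned in cholinergic minus GABAergic neurons (1788) and 2261 when thinned in lateral minus medial neurons (6303). Counts over all 10 genes include the 3 known differences. Those higher in the first class numbered 1 when thinned in GABAergic minus glutamatergic neurons. In cholinergic minus GABAergic neurons they numbered 0 when thinned in edgeR (1 at an unadjusted p under 0.05, and 2 by DESeq2 on unthinned nuclei), 1 without lateral-type nuclei, and 1 to 2 over samples left out. In lateral minus medial neurons they numbered 3 without the filter, 2 without doublets and 1 to 2 over samples left out, and those higher in the second class numbered 3 when thinned. In precursors minus oligodendrocytes those higher in oligodendrocytes numbered 2 to 4 over samples left out. Without the replicate block, the pairing of both classes of a library being given by the design, 1 call changed, Il1rapl2 in precursors minus oligodendrocytes, at -0.41 (edgeR adjusted p = 0.078). RLE factors moved the median of all genes by at most 0.037, and thinning by -0.17 in the cholinergic comparison. Of 390 alternative levels, without the setting added later, 22 moved by more than 1 SD, to 0.694 to 1.15 of the level reported. Apart from Ptprk in striatal-type neurons without predicted doublets, these moves came from doubled markers, most often in lateral and striatal-type neurons. That setting left 2342 of 8798 lateral nuclei, where Ptprd went from 799 to 577 CPM and Ptprt from 851 to 742. Ptprt in GABAergic neurons stood at 878 under it, so the order of these 2 classes depended on the gate. Ptprk in cholinergic neurons moved by over 1.5 times but within its SD, to 43.8 CPM without predicted doublets. Cholinergic sums of 627222 to 1061069 UMIs per sample limit what that class can show. The causes were not tested.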
